A study of Mus musculus with 12 samples.

Results

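The 7 genes described here, Arhgdib, Laptm5, Coro1a, Cd53, Csf1r, Cd68 and Lyz2, are genes for which leukocytes or macrophages are best known. They were read in expression arrays of sorted mouse bone cells and chosen by name. For each of them every probe set that the array annotation ties to that symbol and no other was taken. This gave 16 of the 34945 probe sets with a single symbol, and 7 of the 18193 genes that have such a probe set. A probe set is a group of short array probes summarised to 1 value.

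The series measured 12 arrays, 1 for each sorted sample, in 6 groups of 2. Cells were sorted by flow cytometry from bones of the limbs, skull cap, shoulder blade, spine and rib cage, and the populations carry the names SSC, CSP and Thy. In each population 2 arrays are labelled JUN and 2 are labelled -JUN. JUN is a subunit of the transcription factor AP-1. All samples carry the same notes, which name mice with an inducible JUN and doxycycline given to young mice through their mother's drinking water. The stated induction time is 2 days. The notes do not say whether the mice labelled -JUN lacked the transgene or the drug, so -JUN is read here as the arm without induction. Neither the driver of the transgene nor the age and sex of the mice nor the sort gates are given in the sources used here. Titles name 5 mice. Mouse 4 and mouse 7 gave a JUN array of every population, mouse 3 gave a -JUN array of every population, mouse 3b gave a -JUN array of CSP and of Thy, and mouse 10 gave a -JUN array of SSC. Arrays of the same mouse are not independent of each other. The 2 arrays of each group carry different mouse names. The titles do not state whether mouse 3b is an animal apart from mouse 3. For mouse 3 and mouse 7, the SSC titles carry a date that the CSP and Thy titles lack. Here 3b is treated as a separate animal, and the date is ignored when arrays are matched by mouse. Counts of mice and the mouse block below rest on both assumptions. Under them, the spread within a group is that between its mice.

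Values are log2 expression after RMA, which corrects background, gives all arrays a common distribution and summarises each probe set. The authors deposited them, and their number of arrays, rather than a read depth, limits the precision. Pairs of arrays correlated between 0.872 and 0.979 over all probe sets, and pairs of the same group between 0.937 and 0.970. On average Jun itself was not higher in the arrays labelled JUN. Its probe set 1417409_at ranged from 12.06 to 13.65 over the 12 arrays, and the average difference of JUN minus -JUN arrays was -0.13 ± 0.23 (SE, adjusted p = 0.799, limma). Its probe set 1448694_at ranged from 11.55 to 12.79, with an average difference of -0.42 ± 0.18 (adjusted p = 0.460, limma over all probe sets with a single symbol). The JUN arrays lay below the -JUN arrays without overlap in CSP for both probe sets and in Thy for 1448694_at. Over the genes tested below, 11.9% were separated in that direction in CSP and 10.8% in Thy. In SSC the arms overlapped, with differences of 0.32 for 1417409_at and -0.17 for 1448694_at. Whether these probes also match the transgene is not stated, so the arms are called by their labels throughout. Skeletal genes lay mostly above the median. Of 7 measured skeletal progenitor genes, 6 lay above the array median in all 12 arrays, among them Col1a1, Col1a2 and Prrx1. Over the 12516 genes tested below, each above the median in at least 2 arrays, the share was 72.9%. Thy1, which encodes the surface protein in the name Thy, was lower in SSC than in Thy by -4.70 on the log2 scale (adjusted p = 1.08e-04, limma) and lower in CSP than in Thy by -4.51 (adjusted p = 7.69e-05).

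White blood cells move, engulf and signal with proteins that most other cells make little of. CSF1R is the receptor of macrophages and osteoclasts for the growth factors CSF1 and IL-34, and bone-forming cells are a known source of CSF1 in the skeleton. CD68 and LAPTM5 sit in lysosomal membranes, lysozyme M from Lyz2 digests bacterial walls, CORO1A binds actin, the tetraspanin CD53 organises membrane receptors, and the product of Arhgdib is a cytosolic inhibitor of small GTPase signalling in blood cells. Several of these genes are also transcribed at lower levels outside the blood lineage, so that a signal does not name its cell.

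The genes split by level. Arhgdib lay above the median of the array in every one of the 12 arrays, and Lyz2 and Cd68 in 11 arrays each. The other 4 lay near or below it: Csf1r was above in 5 arrays, Laptm5 and Coro1a in 3 each and Cd53 in 2. Here the probe set of highest mean stands for a gene. Counted as pairs of a gene and an array, 47 of 84 pairs were above the median, with 13 of 28 in SSC, 15 of 28 in CSP and 19 of 28 in Thy. Over all 12516 genes tested the shares were 87.7% in SSC, 89.3% in CSP and 90.0% in Thy. The tested genes had to exceed the median in at least 2 arrays, and each of the 7 did. The count of 47 depends on the bar: it was 25 of 84 against the 60th percentile of the array and 30 of 84 against the median of probe sets with a single symbol. Both of these bars lowered the count, and a bar below the array median raises it.

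Most of the further probe sets of the same genes were dim. Of the 16 probe sets, 1 was above the array median in all 12 arrays, 8 in some and 7 in none. Over all 34945 probe sets with a single symbol, 43.4% were above in all arrays and 29.7% in none. All 7 of the probe sets that were above in none belonged to genes whose best probe set was above in 2 or 3 arrays. They were 4 of 5 for Laptm5, 2 of 3 for Coro1a and 1 of 2 for Cd53. The probe set 1459744_at of Cd53 ranged from 3.80 to 4.47, near the lowest values of the arrays, while 1448617_at of the same gene ranged from 5.79 to 7.98, and their correlation over the 12 arrays was -0.086. Levels of different probe sets are not comparable as amounts of RNA, since each has its own binding strength.

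**Figure D1:**
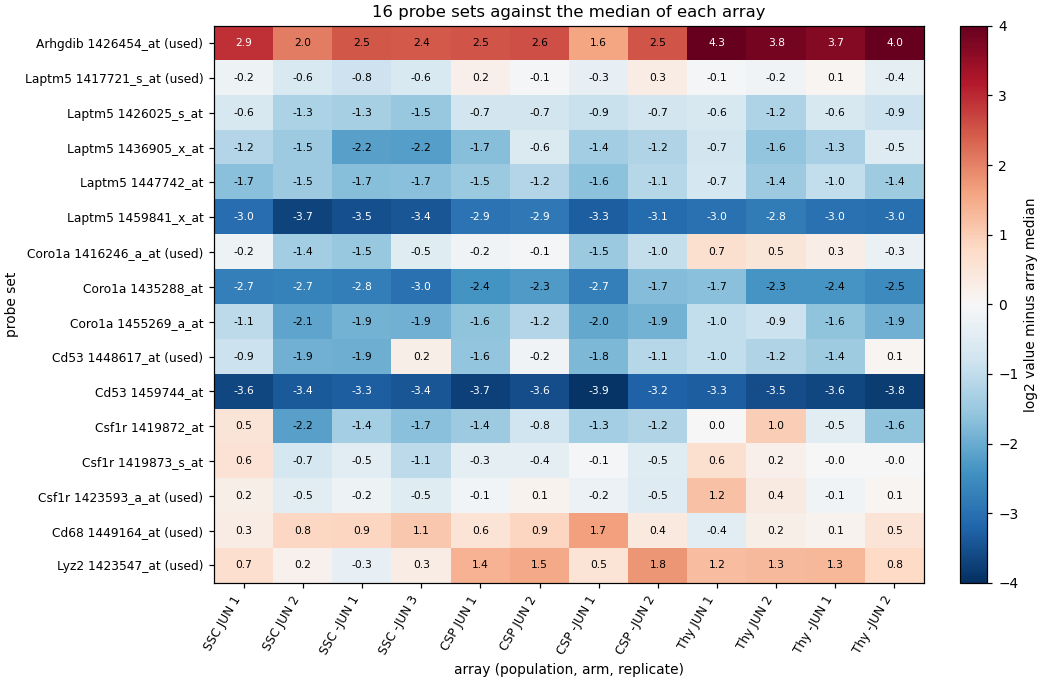
Each cell gives the log2 value of a probe set minus the median of its array, for the 16 probe sets of the 7 genes (rows) in the 12 arrays (columns, by population, arm and replicate). Arhgdib is positive in every column, and 7 probe sets of Laptm5, Coro1a and Cd53 are negative in every column.

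Between populations, Arhgdib was the member that passed the test. It was lower in SSC than in Thy by -1.43 ± 0.26 and lower in CSP than in Thy by -1.65 ± 0.26 on the log2 scale (SE, 4 arrays against 4, adjusted p = 0.0447 and 0.0111, limma with Benjamini-Hochberg adjustment over 12516 genes). The other 6 genes did not pass between any populations. In this test 49 genes, or 0.391% of those tested, passed for SSC against Thy, 124 genes, or 0.991%, passed for CSP against Thy, and 54 genes, or 0.431%, passed for SSC against CSP, where 0 of the 7 did. In bulk samples fewer cells of a type and less RNA per cell cannot be told apart.

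Arhgdib (probe set 1426454_at, chr6:136923655-136941899 in GRCm38.p6) encodes a GDP dissociation inhibitor found mainly in blood cells. In SSC it read 10.64 and 9.76 in the arrays labelled JUN and 10.25 and 10.18 in those labelled -JUN. In CSP it read 10.20 and 10.25 in the arrays labelled JUN and 9.30 and 10.22 in those labelled -JUN. In Thy it read 12.02 and 11.48 in the arrays labelled JUN and 11.33 and 11.73 in those labelled -JUN. All 4 Thy arrays lay above all 8 SSC and CSP arrays, while SSC and CSP overlapped. Over all genes tested, every SSC array lay below every Thy array for 5.18%, and every CSP array below every Thy array for 4.29%. The population means were 10.21 ± 0.36 in SSC, 9.99 ± 0.46 in CSP and 11.64 ± 0.30 in Thy (SD, n = 4). SSC and CSP, the neighbours in that order, differed by 0.22 ± 0.26 (adjusted p = 0.947, limma).

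Within each mouse that gave both populations, Arhgdib was lower in SSC or CSP than in Thy. This follows from the lack of overlap and is no separate support, so the values show only the size per mouse. CSP minus Thy was -1.83 in mouse 4, -1.23 in mouse 7, -2.04 in mouse 3 and -1.51 in mouse 3b. SSC minus Thy was -1.38 in mouse 4, -1.72 in mouse 7 and -1.09 in mouse 3. With the mouse as a block, the difference of SSC from Thy was -1.37 and did not pass (adjusted p = 0.127), while that of CSP from Thy did (-1.65, adjusted p = 0.0159). The call for SSC against Thy passed in 6 of 25 alternatives. It held without SSC JUN replicate 1, CSP -JUN replicate 1 or Thy JUN replicate 2 and was lost without any of the other 9 arrays (adjusted p up to 0.151) or any 1 of the 5 mice (up to 0.202). The call for CSP against Thy held without any 1 array and was lost without mouse 3 (adjusted p = 0.134) or mouse 3b (0.0688). Titles of 3 of the 4 SSC arrays, and of 0 CSP or Thy arrays, carry a date whose meaning is not stated. No title of mouse 4 carries one. For the dated arrays the date cannot be told apart from the population, and its part in the difference was not tested.

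The upstream sequence of Arhgdib is shown because it is the member with a called difference. RefSeq lists 3 start sites for the gene in GRCm38.p6. Of the 250 bases before each, only those at chr6:136939528-136939777 (minus strand) held the letters GAGGAA, the core that the myeloid factor PU.1 binds, which were searched on both strands and are in capitals, 134 bases before the start. The letters occur in 23.3% of 32851 RefSeq windows of this length.
Arhgdib: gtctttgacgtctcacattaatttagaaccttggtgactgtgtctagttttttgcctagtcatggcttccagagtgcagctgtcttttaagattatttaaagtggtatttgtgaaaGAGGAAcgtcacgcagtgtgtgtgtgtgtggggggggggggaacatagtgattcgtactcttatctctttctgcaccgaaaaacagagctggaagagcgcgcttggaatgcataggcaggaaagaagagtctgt
None of the 3 Arhgdib windows held TGANTCA, the AP-1 letters, which occur in 6.7% of all windows.

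Coro1a (1416246_a_at, chr7:126699774-126704816) encodes coronin 1A, which binds actin in leukocytes. The SSC arrays gave 7.50 and 6.32 in the arrays labelled JUN and 6.23 and 7.26 in those labelled -JUN. The CSP arrays gave 7.54 and 7.60 in the arrays labelled JUN and 6.24 and 6.75 in those labelled -JUN. The Thy arrays gave 8.35 and 8.13 in the arrays labelled JUN and 7.91 and 7.44 in those labelled -JUN. The 3 values above the median of their array were all from Thy, whose lowest array overlapped the highest of SSC and CSP. SSC minus Thy was -1.13 ± 0.32 (adjusted p = 0.131, limma) and CSP minus Thy was -0.93 ± 0.32 (adjusted p = 0.264). The value was lower in SSC than in Thy in 3 of 3 mice and lower in CSP than in Thy in 4 of 4. Its neighbours in the order, SSC and CSP, differed by -0.20 ± 0.32 (adjusted p = 0.953). The other probe sets of the gene, 1455269_a_at and 1435288_at, gave differences of -0.35 and -0.50 for SSC minus Thy. For CSP minus Thy they gave -0.32 and -0.02.

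Csf1r (1423593_a_at) encodes the receptor that macrophages need to survive. Its SSC values were 7.95 and 7.25 in the arrays labelled JUN and 7.57 and 7.25 in those labelled -JUN. Its CSP values were 7.60 and 7.79 in the arrays labelled JUN and 7.49 and 7.19 in those labelled -JUN. Its Thy values were 8.88 and 8.02 in the arrays labelled JUN and 7.53 and 7.76 in those labelled -JUN. The Thy arrays labelled JUN held the highest values, and the other 10 arrays lay between 7.19 and 7.95. SSC minus Thy was -0.54 ± 0.25 (adjusted p = 0.278, limma) and CSP minus Thy was -0.53 ± 0.25 (adjusted p = 0.423). The other Csf1r probe sets, 1419873_s_at and 1419872_at, correlated with this one at 0.809 and 0.665 over the 12 arrays and gave -0.56 and -0.84 for SSC minus Thy.

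Lyz2 (1423547_at, chr10:117277541-117282272) encodes lysozyme M, a product of macrophages and neutrophils. SSC arrays held values of 8.37 and 7.90 in the arrays labelled JUN and 7.42 and 8.03 in those labelled -JUN. CSP arrays held values of 9.07 and 9.17 in the arrays labelled JUN and 8.26 and 9.45 in those labelled -JUN. Thy arrays held values of 8.93 and 8.95 in the arrays labelled JUN and 8.98 and 8.49 in those labelled -JUN. SSC was the low population, without overlap with Thy (as for 5.18% of all genes in that direction) and with 1 CSP array inside its range. SSC minus CSP was -1.06 ± 0.26 (adjusted p = 0.182, limma) and SSC minus Thy was -0.91 ± 0.26 (adjusted p = 0.142). The value was lower in SSC in 3 of 3 mice in both, which for Thy follows from the lack of overlap. CSP and Thy differed by 0.15 ± 0.26 (adjusted p = 0.848).

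Lyz1, which encodes lysozyme P, lies 5523 bases from Lyz2 in the genome, and its sequence is so near that their probe sets may read each other's RNA. The 120 bases before both start sites are shown to compare the genes upstream. Lying before the start, these bases do not show whether the probe sets share RNA. They come from RefSeq on the minus strand of GRCm38.p6, at chr10:117282273-117282392 for Lyz2 and chr10:117292869-117292988 for Lyz1. Capitals mark the 9 positions at which they differ, with 111 bases the same and the last 50 identical. Over the 250 bases before each start, 152 were the same (60.8%) when compared position by position with no gaps. An inserted or lost base lowers such a count, and an alignment with gaps was not made.
Lyz2: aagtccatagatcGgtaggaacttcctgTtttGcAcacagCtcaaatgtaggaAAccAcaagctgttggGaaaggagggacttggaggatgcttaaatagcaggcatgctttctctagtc
Lyz1: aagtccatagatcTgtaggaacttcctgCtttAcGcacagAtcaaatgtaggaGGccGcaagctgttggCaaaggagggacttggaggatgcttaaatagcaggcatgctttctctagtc
The pattern of Lyz1 followed that of Lyz2. Its probe sets 1436996_x_at and 1439426_x_at correlated with Lyz2 at 0.903 and 0.922 over the 12 arrays and with each other at 0.993. The suffix x_at marks probes that also match other transcripts. For 1436996_x_at, SSC minus Thy was -2.14 ± 0.40 and passed when 1 probe set stood for a gene (adjusted p = 0.0481, limma). It did not pass when each of the 34945 probe sets was tested by itself (adjusted p = 0.0688). The third Lyz1 probe set, 1450822_at, was below the array median in all 12 arrays and gave -0.29 ± 0.19 (adjusted p = 0.457 in that test). The part of RNA shared between the lysozyme probe sets was not tested.

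**Figure D2:**
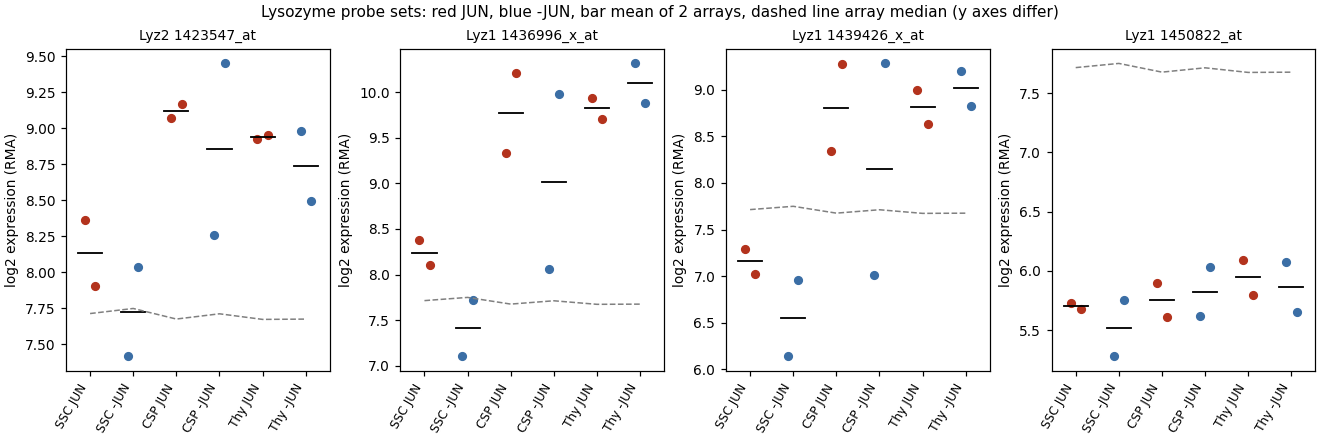
Log2 expression of the Lyz2 probe set and the 3 Lyz1 probe sets in each array, by population, with JUN (red) left of -JUN (blue), a bar at the mean of 2 arrays and a dashed line at the array median. The SSC groups have the lowest means for Lyz2 and for both Lyz1 x_at probe sets, and Lyz1 1450822_at stays below the dashed line.

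Laptm5 (1417721_s_at, chr4:130912890-130936148) encodes a lysosomal membrane protein of blood cells. In SSC it read 7.49 and 7.10 in the arrays labelled JUN and 6.93 and 7.14 in those labelled -JUN. In CSP it read 7.89 and 7.59 in the arrays labelled JUN and 7.40 and 8.0 in those labelled -JUN. In Thy it read 7.64 and 7.50 in the arrays labelled JUN and 7.75 and 7.33 in those labelled -JUN. SSC again held the lowest values and overlapped the others by a single array, and the whole range spanned 6.93 to 8.0. SSC minus CSP was -0.56 ± 0.20 (adjusted p = 0.574, limma), and SSC minus Thy was -0.39 ± 0.20 (adjusted p = 0.331). All 5 Laptm5 probe sets gave a negative SSC minus Thy difference, between -0.67 and -0.30, and 0 of them passed.

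Cd68 (1449164_at, chr11:69664213-69666170) encodes macrosialin, a lysosomal glycoprotein used to stain macrophages, and it ran the other way. Values in SSC were 8.0 and 8.55 in the arrays labelled JUN and 8.63 and 8.82 in those labelled -JUN. Values in CSP were 8.24 and 8.51 in the arrays labelled JUN and 9.38 and 8.09 in those labelled -JUN. Values in Thy were 7.28 and 7.89 in the arrays labelled JUN and 7.79 and 8.24 in those labelled -JUN. Thy was the low population, with overlap through its highest array. SSC minus Thy was 0.70 ± 0.28 (adjusted p = 0.228, limma) and positive in 3 of 3 mice, while CSP minus Thy was 0.76 ± 0.28 (adjusted p = 0.299) and positive in 3 of 4 mice. SSC and CSP differed by -0.05 ± 0.28.

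Of the 6 members searched, which leave out Csf1r, Cd68 was the one with AP-1 letters in its upstream bases, and the sequence is shown since JUN is part of AP-1. In the 250 bases before its start at chr11:69666171-69666420 (minus strand, GRCm38.p6, RefSeq) the letters TGANTCA occur 149 and 24 bases before the start, and GAGGAA occurs 225 bases before it. These are in capitals and do not overlap.
Cd68: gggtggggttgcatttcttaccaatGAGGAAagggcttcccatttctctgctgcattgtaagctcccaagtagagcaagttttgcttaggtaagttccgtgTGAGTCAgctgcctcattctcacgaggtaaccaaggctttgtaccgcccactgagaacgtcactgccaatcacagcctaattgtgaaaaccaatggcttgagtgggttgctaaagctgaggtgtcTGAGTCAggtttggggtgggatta
At least 1 AP-1 match is found in 6.7% of the 32851 windows and at least 2 in 0.34%. Of the 9 start sites of 6 members searched on both strands, 1 held AP-1 letters and 4 held GAGGAA. Those with GAGGAA add Laptm5 and Cd53, with the letters 38 and 39 bases before the start, to Arhgdib and Cd68. The match describes letters and shows no binding.

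Cd53 (1448617_at, chr3:106758861-106790149) encodes a tetraspanin of leukocyte membranes. In SSC it read 6.85 and 5.79 in the arrays labelled JUN and 5.82 and 7.98 in those labelled -JUN. In CSP it read 6.12 and 7.50 in the arrays labelled JUN and 5.92 and 6.56 in those labelled -JUN. In Thy it read 6.73 and 6.45 in the arrays labelled JUN and 6.23 and 7.77 in those labelled -JUN. Replicates of every group differed by more than the population means did, and the 2 values above the array median came from mice 10 and 3b. The differences between populations ran from -0.27 to 0.08, each with an SE of 0.52 (adjusted p from 0.860 to 0.993, limma).

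**Figure D3:**
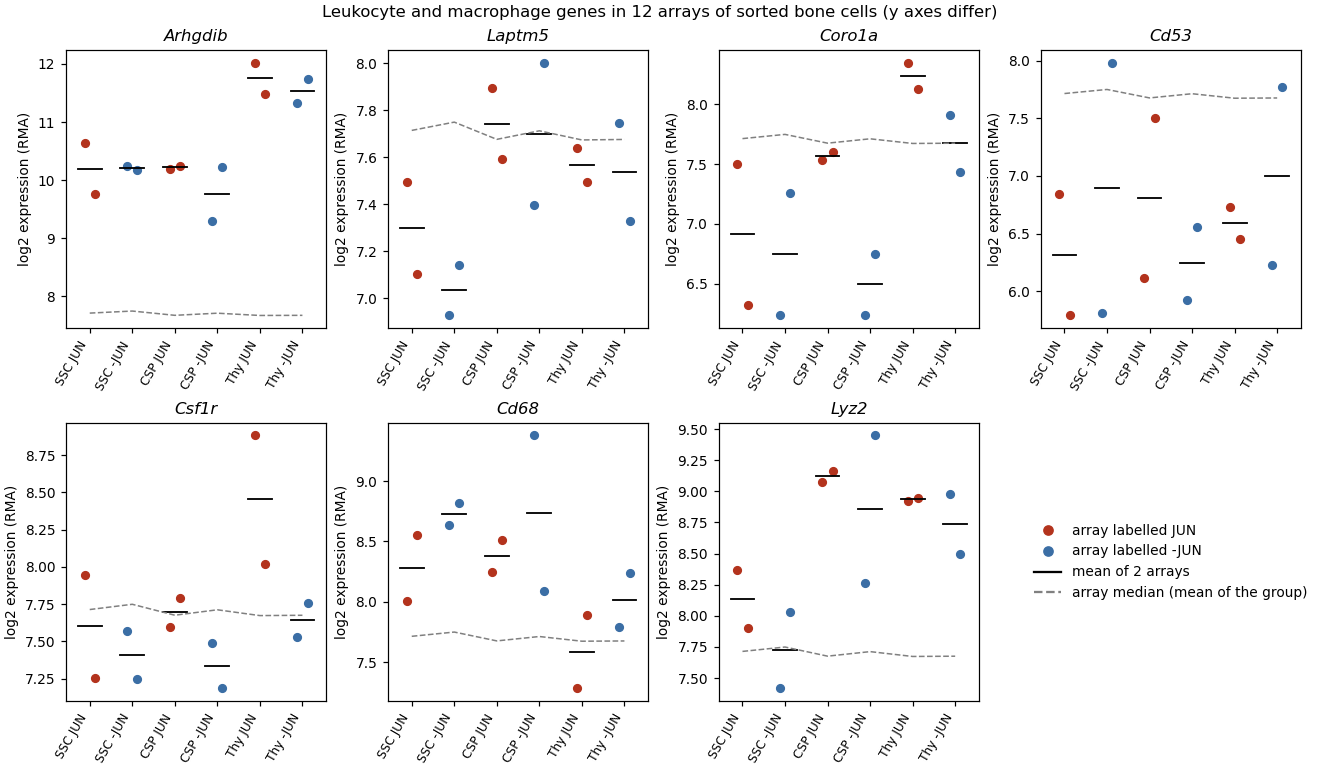
Log2 expression of the 7 genes in each of the 12 arrays, by population, with JUN (red) left of -JUN (blue), a bar at the mean of 2 arrays and a dashed line at the array median. Arhgdib stays above the dashed line and is highest in the 4 Thy arrays, while the 2 highest Cd53 values (7.98 and 7.77) are 1 SSC and 1 Thy array labelled -JUN.

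The series asks what JUN induction does to these populations. For none of the 7 genes did the arrays labelled JUN differ from those labelled -JUN at the threshold. In limma 0 genes of 12516, or 0%, passed for JUN in SSC, CSP or Thy, for the average over populations or for a JUN difference that varied with population. At an unadjusted p below 0.05 the counts were 813 in SSC, 288 in CSP, 380 in Thy, 1569 for the average and 144 for the variation. All 7 members had an adjusted p of 0.9997 for that variation.

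Among the members, Coro1a and Csf1r had the largest mean differences toward JUN by the probe set that stands for a gene. Coro1a averaged 7.57 ± 0.70 in the arrays labelled JUN and 6.97 ± 0.68 in those labelled -JUN (SD, n = 6), and the average of its differences was 0.60 ± 0.26 (SE, unadjusted p = 0.0437, adjusted p = 0.396, limma). In CSP its difference was 1.08 ± 0.45 (adjusted p = 0.995) and in Thy 0.56 ± 0.45 (adjusted p = 0.985), without overlap of the arms in either, while the arms overlapped in SSC (0.17 ± 0.45). Csf1r averaged 7.92 ± 0.55 in the arrays labelled JUN and 7.46 ± 0.21 in those labelled -JUN, with an average difference of 0.45 ± 0.21 (adjusted p = 0.398). Its difference was 0.81 ± 0.37 in Thy and 0.36 ± 0.37 in CSP, again without overlap. Such separation was common: with 2 arrays against 2, all JUN arrays were higher for 19.3% of genes in CSP and 17.9% in Thy. The other probe sets varied. Average differences were 0.55 (1455269_a_at) and 0.14 (1435288_at) for Coro1a, and 0.32 (1419873_s_at) and 0.77 (1419872_at) for Csf1r. In CSP, 1455269_a_at gave 0.55 and 1419872_at 0.12, while 1435288_at and 1419873_s_at each gave -0.14.

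For each of the other members the average difference between the arms was smaller than its SD within groups, which ran from 0.27 for Laptm5 to 0.94 for Cd53. Cd68 averaged 8.08 ± 0.47 in the arrays labelled JUN and 8.49 ± 0.57 in those labelled -JUN, with a difference of -0.41 ± 0.25 (adjusted p = 0.445, limma). It was negative in each population (SSC -0.45, CSP -0.35, Thy -0.42), and only in SSC did the arms not overlap, as 15.7% of all genes did there in that direction. The average difference was 0.29 ± 0.24 for Lyz2, 0.22 ± 0.23 for Arhgdib, 0.11 ± 0.19 for Laptm5 and -0.14 ± 0.44 for Cd53 (adjusted p from 0.543 to 0.886). The sign for Cd53 turned to 0.14 with the replicate number as a block.

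**Figure D4:**
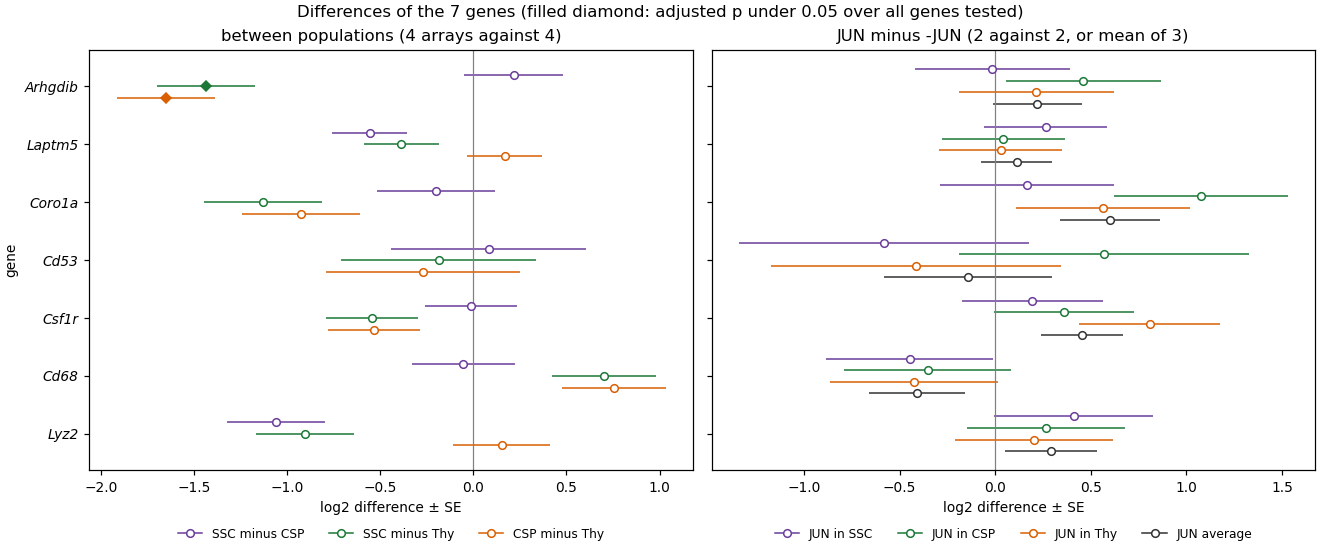
Log2 differences with their SE for the 7 genes between populations (left) and between arrays labelled JUN and -JUN (right), from the fit over all genes. Filled diamonds, which mark an adjusted p under 0.05, appear for Arhgdib in SSC minus Thy (-1.43) and CSP minus Thy (-1.65) alone.

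The 7 genes did not form a single pattern over the arrays. The correlations that follow are Pearson's r over 12 arrays that share mice and a common distribution, given as a description. Laptm5 and Lyz2 ran closest together (0.937), followed by Arhgdib with Coro1a (0.805), Arhgdib with Csf1r (0.705) and Coro1a with Csf1r (0.691). Cd68 ran against all 6 of the others, from -0.834 with Arhgdib to -0.059 with Cd53. Of the 21 pairs 14 were above 0.

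Outside the members, the genes most like each in pattern were taken by the highest r among 11889 named genes. For Arhgdib these were Arhgef16 (0.961), Rasl12 (0.930) and Plau (0.920). Coro1a had Rxrg (0.884), Frmd8 (0.881) and Wap (0.881), and Csf1r had Numbl (0.931), Klhdc4 (0.928) and Rusc2 (0.924). None of these is on the leukocyte or macrophage marker lists. Only 7 and 10 genes of those lists were tested, so their absence says little. For Lyz2 they were Rpp21 (0.916), Lyz1 (0.903) and Mmrn2 (0.873), and for Laptm5 Mmrn2 (0.868), Fam83g (0.863) and Capn3 (0.860). Mmrn2, an extracellular protein of vessel walls, was the gene that both lists share. Cd68 had Igdcc4 (0.938), Ints2 (0.924) and Spag1 (0.923), and Cd53 had Gsr (0.878), Vmn2r29 (0.754) and Trmt10a (0.711).

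Position in the genome gave further points of comparison. Cd68 lies 766 bases from Eif4a1, which encodes a translation initiation helicase, and their r was -0.811. Csf1r lies 138 bases from Hmgxb3 and 20505 bases from Pdgfrb, the receptor gene from the same family, and its r was 0.849 with Hmgxb3 and 0.729 with Pdgfrb. Arhgdib had an r of 0.659 with Pde6h, 10319 bases away, and -0.328 with Mgp on its other side. Whether reads of 1 gene's RNA reach the probes of its neighbour was not tested.

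The defining genes of blood cells were mostly dim. Ptprc, which encodes the leukocyte surface protein CD45, was above the array median in 0 of 12 arrays and averaged 5.81 in SSC, 6.25 in CSP and 6.01 in Thy. Of 22 pan-leukocyte genes beside the members, 1 was above the median in all arrays, 14 in none and 7 in some. Over all probe sets with a single symbol, 43.4% were above in all arrays and 29.7% in none. That share is by probe set, while the list counts take 1 probe set per gene. The one above in all was Cd44, an adhesion receptor that skeletal cells also carry. Tyrobp, Cd52 and Itgb2 were among those above in none, and Spi1, which encodes PU.1, was above in 2 arrays.

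Macrophage genes divided in the same way. Of 24, 2 were above the median in all arrays (Mertk and Sirpa), 13 in none and 9 in some. The shares over all probe sets with a single symbol, 43.4% in all arrays and 29.7% in none, also stand beside the counts that follow. Adgre1, which encodes the macrophage marker F4/80, and Itgam, C1qa and Aif1 were above in none, while Trem2 and Lgmn were above in 11. Of 9 osteoclast genes, Acp5, Ctsk and Mmp9 were above in all 12, and Calcr, Ocstamp, Dcstamp, Atp6v0d2 and Oscar in none. B cell genes were above in none (5 of 5), as were erythroid genes (4 of 4) and 5 of 6 T and NK cell genes. By count, 0 of the 7 pan-leukocyte, 10 macrophage and 3 osteoclast genes tested passed between populations or arms. Over all genes tested, 0.391% to 0.991% passed between populations and 0% between arms, so these counts say little about the lists. Their part in the values of the 7 members was not tested.

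**Figure D5:**
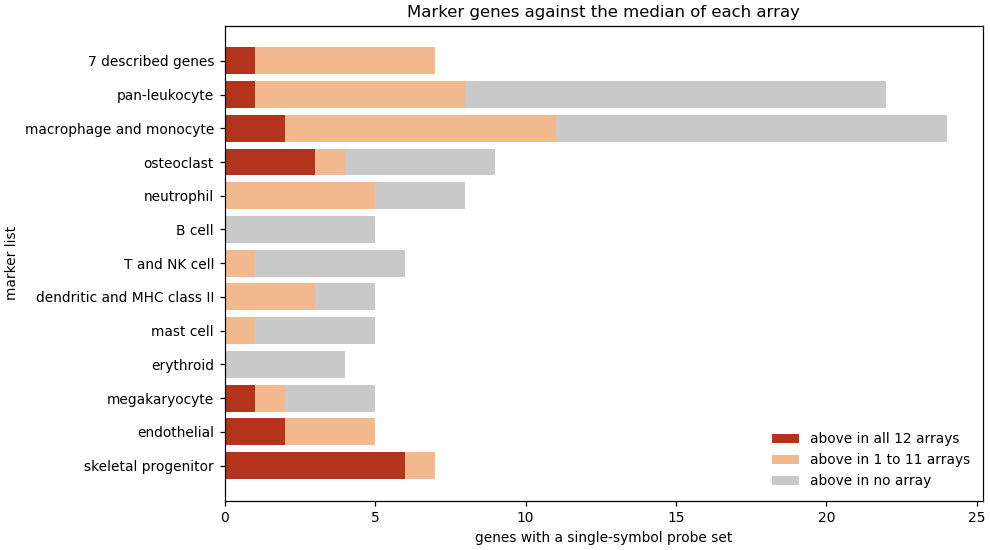
Number of genes above the array median in all 12 arrays (red), in 1 to 11 arrays (orange) and in none (grey), for the 7 described genes and for marker lists of blood, vessel and skeletal cells. Most pan-leukocyte and macrophage genes are grey (14 of 22 and 13 of 24), and 6 of 7 skeletal genes are red. Of all probe sets with a single symbol, 29.7% were above in none and 43.4% in all arrays.

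Tested neutrophil genes, and Pecam1, Emcn and Cdh5 among the 5 vessel genes, also had their lowest mean in SSC. Of the other vessel genes, Tek was lowest in CSP and Kdr in Thy. All 4 neutrophil genes tested had a negative SSC minus Thy and a negative SSC minus CSP difference, and none passed. Over all genes tested, 42.3% had a positive SSC minus Thy and 42.2% a positive SSC minus CSP difference. Camp, which encodes an antimicrobial peptide, averaged 7.47 in SSC and 8.75 in Thy, with a difference of -1.28 (adjusted p = 0.0514, limma), and S100a9, a subunit of calprotectin, averaged 7.23 in SSC and 8.30 in Thy (-1.07, adjusted p = 0.0884). The mean of the 8 neutrophil genes ran from 6.11 to 6.74 in SSC arrays, from 6.60 to 7.48 in CSP arrays and from 7.03 to 7.40 in Thy arrays. Elane, Mpo and Prtn3, the granule genes of young neutrophils, were above the median in 0 arrays. Of the endothelial genes, Pecam1, an adhesion protein of vessel walls, averaged 6.91 in SSC, 8.43 in CSP and 7.62 in Thy (SSC minus CSP -1.52, adjusted p = 0.229, limma). Emcn, a sialomucin of vessel lining, was above the median in 1 array and averaged 5.97 in SSC, 7.61 in CSP and 6.16 in Thy. Kdr, a receptor for VEGF, averaged 7.67 in SSC, 8.83 in CSP and 7.63 in Thy. None of the 4 endothelial genes tested passed, where at most 0.991% of all genes did between populations. The mean of the 5 endothelial genes ran from 7.50 to 8.14 in SSC arrays, from 8.04 to 9.0 in CSP arrays and from 7.45 to 8.47 in Thy arrays. The part of the neutrophil and endothelial genes in the Lyz2 and Laptm5 values was not tested.

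The partners of the members were read from lists of named genes. The ligands of CSF1R were both measured: Csf1 was above the median in 12 of 12 arrays, from 10.32 to 12.56. Il34 averaged 7.28 in CSP and 8.52 in Thy and was lower in CSP by -1.24 (adjusted p = 0.0373, limma). Il34 was the gene that passed between populations among the 13 tested of the CSF1R pathway. Over all genes tested, 0.991% passed for CSP against Thy. Of the 13, 12 had a negative SSC minus Thy difference. Most genes did: 42.3% of all genes tested had a positive one. Cebpa, Cebpb and Runx1, which encode factors of the myeloid program that other cells also use, were above the median in all 12 arrays. So were 72.9% of all genes tested.

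Genes with the same machinery as the members but a wide tissue range lay mostly above the median. Over all genes tested, 72.9% were above it in all 12 arrays. All 16 measured lysosome genes, including Lamp1, Ctsb and Ctsd, were above the median in all 12 arrays. Of them, 0 passed between populations or arms, where at most 0.991% of all genes did. Coro1b and Coro1c, the relatives of Coro1a in most tissues, were also above the median in all 12 arrays. Among 9 tetraspanins, 8 were above in all 12 arrays, and Cd37, a leukocyte tetraspanin like Cd53, was above in 0. Cd151, a tetraspanin of adhesion sites, was lower in CSP than in Thy by -1.01 (adjusted p = 0.0373, limma).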

How the data were processed

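Sorted bone cells of 6 groups were measured on 12 arrays. Per the submitters' processing notes, the authors made the values with RMA. The deposited values are log2 expression, read as such from their range. Neither software nor version nor background model is given in the sources used here. Small values are compressed by RMA, and shifts of total RNA are lost in its common distribution.

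Of 45101 probe sets, 64 controls were left out. The platform annotation gave 1 symbol to 34945 of the other 45037, several to 932 and none to 9160. Through Entrez identifiers 34741 matched the RefSeq table, with 0 symbols altered. Probe sets above their array's median in at least 2 arrays were retained (23034, among them 9 of the 16 of the members), and the one of highest mean stood for each of 12516 genes.

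Tests were two-sided and used lmFit and eBayes of limma 3.58.1 (R 4.3.3). P-values were adjusted by Benjamini-Hochberg over 12516 genes, with a threshold of 0.05. JUN differences came from a model of 6 group means, so groups of 2 shared 1 estimate of spread, and populations from a model of population and arm. The fit was tested on simulated data. Arrays of the same mouse pair the populations. Correlations of their deviations from the model of population and arm ran from -0.333 to 0.406. Replicate numbers of the arms belong to different mice and share only a number. Alternatives changed the filter, the probe sets, the block, the variance model, the normalization and the arrays used.

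The 7 members and all lists were chosen with earlier results of these data known. The text names all members, the 3 genes of highest r with each (predicted and non-coding models left out), and from each list up to 4 genes of lowest p and of highest or lowest level. Other list genes, and genes next to the members, were named after their values were seen. Upstream sequences came from RefSeq (GRCm38.p6).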

Additional observations from a re-analysis of the deposited data

Results flagged for a closer look

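In groups of 4 arrays, the 7 genes were searched for an array whose gap to the nearest other was a larger share of the range of its population than the 95% critical value of Dixon's test. This was so in 2 of 21 groups, and chance gives about 1 in 20. Arhgdib read 9.3 in CSP -JUN replicate 1, from mouse 3, while the other 3 CSP arrays lay between 10.20 and 10.25. Without that array the CSP minus Thy difference of Arhgdib was -1.43 (adjusted p = 0.0361, limma). Lyz2 read 8.49 in Thy -JUN replicate 2, from mouse 3b, while the other 3 Thy arrays lay between 8.93 and 8.98.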

How the results depend on the processing

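For the 7 genes, 1279 of 1372 alternative values kept their side of the threshold and, where they had one, their direction. The F values of the JUN variation have no direction, and most of the 1372 belong to differences that did not pass in the main fit. The 21 that kept direction but missed the threshold were all of Arhgdib. Its calls passed in 6 of 25 alternatives for SSC minus Thy and 23 of 25 for CSP minus Thy. Of the rest, 0 newly passed and 72 turned sign, 69 of them when an array or mouse was left out. The other 3 were Cd53: 0.28 for JUN in SSC and 0.14 for the JUN average with the replicate number as a block, and -0.21 for SSC minus CSP with the mouse as a block. The replicate block on the mouse also lowered the genes called to 8 for SSC minus CSP and 4 for SSC minus Thy, and the Arhgdib call for SSC minus Thy was lost with it (-1.37, adjusted p = 0.127). It changed no other call of a member. For SSC minus Thy the count was 24 with no filter, 75 with the mean of a gene's probe sets and 16 with the compared arrays alone. Fewer arrays or more genes enter those fits by construction, and otherwise the cause was not tested. Left-out arrays or mice gave 7 to 62 calls for SSC minus CSP, 3 to 304 for SSC minus Thy and 17 to 155 for CSP minus Thy. For JUN they gave 0 to 282 calls in SSC, 0 to 2 in CSP, 0 to 175 in Thy and 0 to 495 for the average, the highest in SSC, Thy and the average without mouse 7, and none of the 7 genes was among them. The pairs above the bar numbered 47 of 84 against the median, 25 against the 60th percentile and 30 against the median of single-symbol probe sets. A bar below the array median raises that number. Below the array median, background and expression cannot be told apart in these values, which limits what Laptm5, Coro1a, Cd53 and Csf1r can show.

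Ranges of the log2 difference when 1 array or mouse was left out crossed 0 as follows. For JUN in SSC they were -0.45 to 0.42 for Arhgdib, -0.42 to 0.75 for Coro1a, -1.67 to 0.50 for Cd53 and -0.15 to 0.54 for Csf1r. For JUN in CSP they were -0.0033 to 0.93 for Arhgdib, -0.26 to 0.34 for Laptm5, -0.13 to 1.26 for Cd53, -0.999 to 0.29 for Cd68 and -0.33 to 0.86 for Lyz2. For JUN in Thy they were -0.057 to 0.49 for Arhgdib, -0.18 to 0.24 for Laptm5, -1.18 to 0.36 for Cd53 and -0.040 to 0.44 for Lyz2. For the JUN average they were -0.0076 to 0.45 for Arhgdib, -0.028 to 0.25 for Laptm5 and -0.87 to 0.22 for Cd53. For SSC minus CSP they were -0.029 to 0.45 for Arhgdib, -0.48 to 0.16 for Coro1a, -0.41 to 0.68 for Cd53, -0.13 to 0.17 for Csf1r and -0.31 to 0.18 for Cd68. For SSC minus Thy the range was -0.68 to 0.16 for Cd53. For CSP minus Thy the ranges were -0.71 to 0.071 for Cd53 and -0.12 to 0.44 for Lyz2.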
